A study of Mus musculus with 6 samples.

Results

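A set of 36 mouse genes of DNA replication, mitosis and the cyclins was followed in adipose progenitors with and without rosiglitazone. The members were taken by gene symbol, and every probe whose platform annotation carried one of the 36 symbols was included. Of the 36, 34 are among the 19057 genes that the annotation names. A probe was kept where its detection p-value was under 0.05 on at least 3 of the 6 arrays. The detection p-value is the chance that background alone would give a signal at least as high. Of the 36 members, 26 had a kept probe, of 9760 genes in all.

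The rosiglitazone group comprised 3 arrays from adult PPARgamma-tTA;tetO-H2B-GFP mice, called AdipoTrak, fed chow with 0.0075% rosiglitazone for 2 months, and the untreated group comprised 3 arrays from mice of the same genotype on plain chow. Rosiglitazone is a thiazolidinedione that activates the nuclear receptor PPARgamma. In both groups the Pparg promoter drove a tetracycline-controlled activator, which in turn induced a histone fused to green fluorescent protein, the mice were 2 to 6 months old, and green stromal-vascular cells were sorted after a collagenase digestion of 2 hours at 37 degrees C. The white fat came from inguinal, interscapular and gonadal depots, and each array stands for a cohort of 3 to 4 mice, so the error given is the spread between cohorts.

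Cells that divide copy their DNA once per cycle and then separate the copies. Before S phase the MCM helicase is loaded on the DNA, and the enzymes that make deoxynucleotides are raised under E2F transcription factors; later in the cycle, B-Myb, FOXM1 and the MuvB core turn on the kinases, motors and chromosome proteins of mitosis. In quiescent cells the DREAM complex, built on the same core, holds both groups down through E2F sites and through a promoter element called the cell cycle homology region. In adult fat most cells are not cycling, and new adipocytes arise from progenitors.

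The promoters of 3 members show these elements. They are given because Prc1 and Cdc20 are mitotic genes whose arrays varied together, as described further on, and Mcm5 is a replication gene. Stretches with matches before the start were chosen, and not every member has such matches. The stretches are the 200 bases before the annotated start, 5′ to 3′ on the coding strand, from RefSeq on GRCm38.p6: chr7:80294276-80294475 on the plus strand for Prc1 (the second of its 2 annotated starts), chr4:118437344-118437543 on the minus strand for Cdc20 and chr8:75109309-75109508 on the plus strand for Mcm5. Capitals mark TTTGAA, the letters of the cell cycle homology region, CCAAT, the letters of the NF-Y box, and TTGGCGC, an E2F-type site that reads as GCGCCAA when it lies on the other strand.
Prc1: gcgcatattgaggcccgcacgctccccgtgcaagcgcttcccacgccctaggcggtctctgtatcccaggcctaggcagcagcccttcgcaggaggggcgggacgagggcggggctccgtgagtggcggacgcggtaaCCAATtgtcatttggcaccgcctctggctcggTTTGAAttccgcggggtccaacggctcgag
Cdc20: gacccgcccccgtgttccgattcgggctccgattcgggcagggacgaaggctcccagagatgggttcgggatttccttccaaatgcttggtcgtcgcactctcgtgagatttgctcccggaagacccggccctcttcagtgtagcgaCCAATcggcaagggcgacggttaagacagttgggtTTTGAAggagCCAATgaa
Mcm5: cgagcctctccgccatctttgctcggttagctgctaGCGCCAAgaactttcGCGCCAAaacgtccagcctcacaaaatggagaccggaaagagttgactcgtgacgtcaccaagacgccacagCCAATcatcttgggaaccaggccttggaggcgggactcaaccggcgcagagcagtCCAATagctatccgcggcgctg
In Prc1, TTTGAA begins 30 bases before the start and CCAAT begins 62 bases before it. In Cdc20, TTTGAA begins 18 bases before the start, between CCAAT matches at 53 and 8 bases. Mcm5 has no TTTGAA in its window; it has the E2F-type letters at 164 and 149 bases and CCAAT at 77 and 22 bases before the start.

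Windows of 300 bases, 250 before and 50 after the start, were searched on both strands for 31 of the 36 members; Mcm4, Ccnd1, Ccna2, Kif20a and Aurkb had no entry in the table used. TTTGAA occurred in 13 of 17 mitotic and spindle members (76.5%), in 1 of 10 replication members, Mcm2, and in 20.2% of all 27025 genes. CCAAT occurred in 15 of 17 mitotic and spindle members, in 8 of 10 replication members and in 41.1% of all genes. TTGGCGC occurred in 4 of 10 replication members (Mcm3, Mcm5, Mcm6 and Mcm7), in 1 of 17 mitotic and spindle members (Mki67) and in 2.85% of all genes. A second E2F-type spelling, TTCCCGC, occurred in 3 of 10 replication members, in 0 of 17 mitotic and spindle members and in 5.29% of all genes. The other 4 windows were those of Ccne1, Ccnb1, Ccnb2 and Cdk1. Among these 4, TTTGAA occurred in 2, Ccnb2 and Cdk1, and CCAAT in 3. TTGGCGC occurred in 2 of them, Ccnb1 and Cdk1, and TTCCCGC in 0. None of these letters occurred in the windows of Birc5 and Nusap1, which are mitotic and spindle members, or of Tyms, Tk1 and Ccne1. A match of letters is a description of the window and no evidence that a factor binds there.

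Some members gave little or no signal. Of 75 member probes, 28 were detected on 0 arrays, 29 on all 6, and 41 were kept. Of all 45281 probes on the array, 16442 were kept, a smaller share. Mki67, the gene of the proliferation antigen Ki-67, and Ccnb1, the mitotic cyclin B1, had no probe with that symbol in the annotation used. A further 8 members had probes but none kept. The S phase cyclin genes Ccne1 and Ccna2 were each detected on 1 rosiglitazone array and on 0 untreated arrays. The better probe of the spindle motor Kif11 was detected on 0 rosiglitazone arrays and 2 untreated arrays. The other 5, detected on 0 arrays, were Ccnb2, encoding cyclin B2, Bub1, a checkpoint kinase, Ube2c, the ubiquitin-conjugating enzyme of the anaphase-promoting complex, Cenpe, a kinetochore motor, and Kif20a, a cytokinesis motor.

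Failure to detect a probe does not show that a gene was silent. Top2a and Nusap1, both kept, had other probes detected on 0 arrays, 2 of 3 for Top2a and 3 of 4 for Nusap1. The number of member probes detected per array was 38, 38 and 39 of 75 on the rosiglitazone arrays and 41, 36 and 37 on the untreated arrays. Of all probes, 35.1%, 37.2% and 37.5% were detected on the rosiglitazone arrays and 36.9%, 34.2% and 38.4% on the untreated arrays. Of the 26 kept members, 21 were detected on all 6 arrays; the other 5 were Mcm3, Mcm7, Rrm2, Aurkb and Bub1b. Values near the detection limit compress differences, so the changes of such dim probes are understated.

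**Figure D1:**
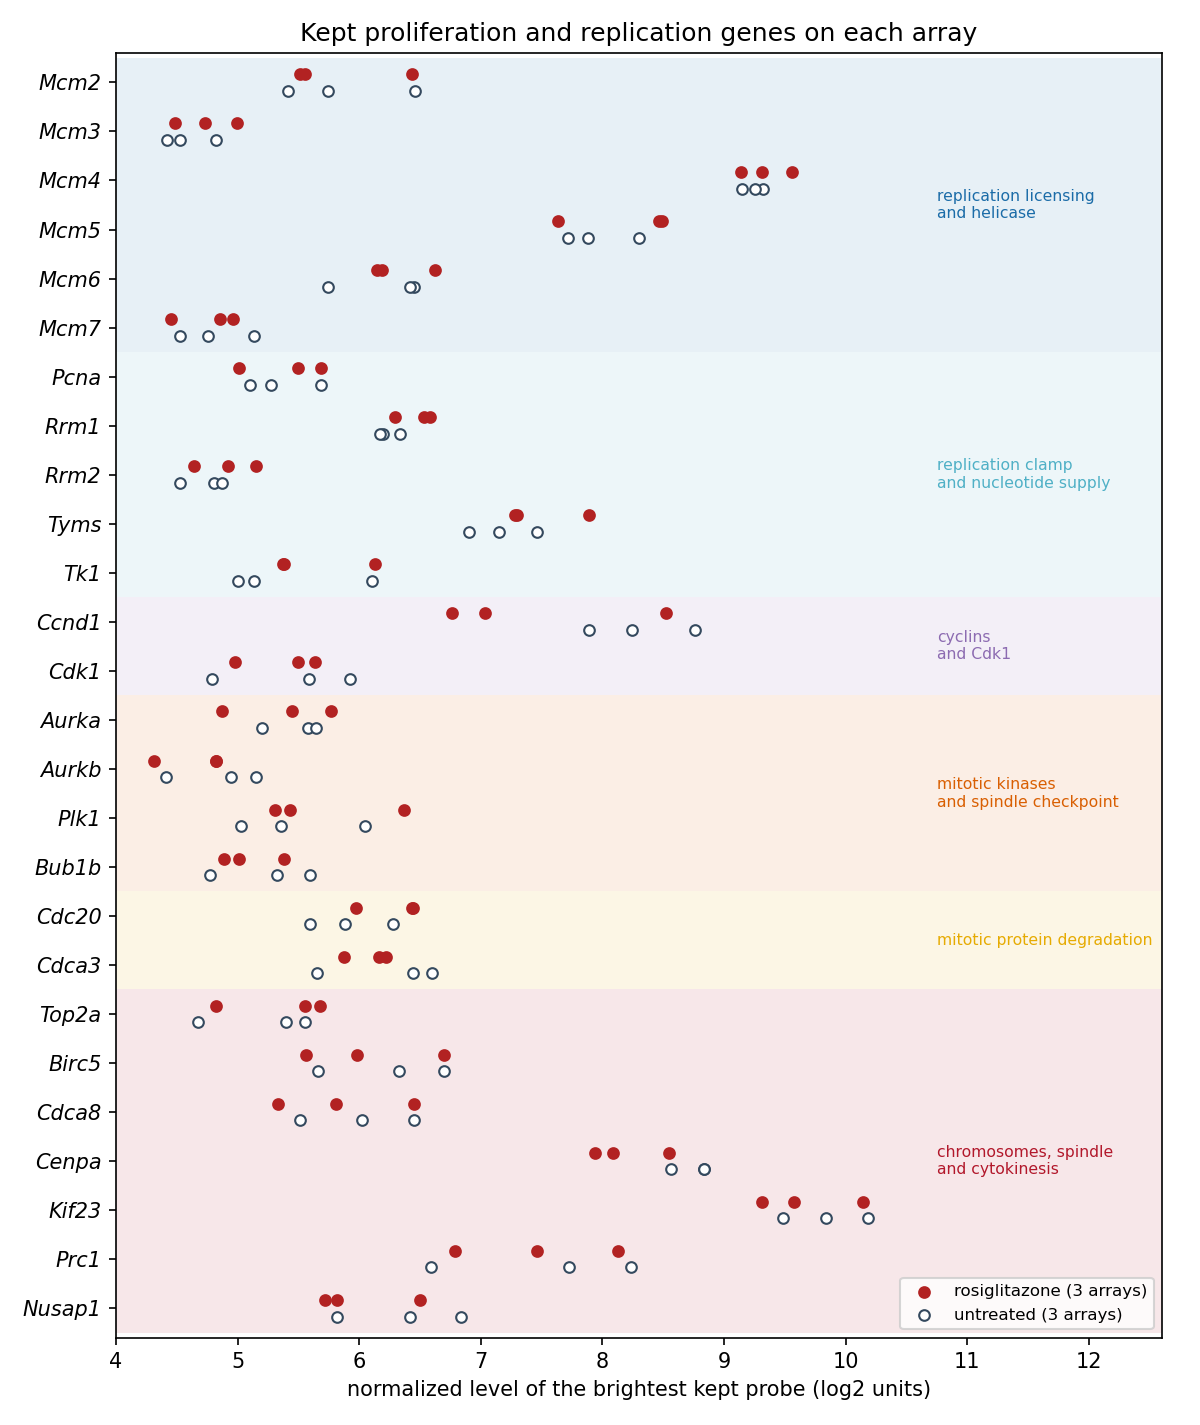
Normalized log2 level of the brightest kept probe of each of the 26 kept members (rows, grouped by role) on each array, with rosiglitazone arrays and untreated arrays in separate colours. Points of both groups overlap in every row but that of Cenpa, and rows are not to be ranked by level, since probes differ in brightness.

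Over the whole table, 392 of 16442 kept probes passed an adjusted p of 0.05 in limma (2.38%), 81 higher and 311 lower with rosiglitazone, and the smallest change among them was 1.66-fold. Array totals ranged from 9478692 to 14831319 intensity units. Macrophage and monocyte markers were lower, 14 of 15 measured genes past the threshold, with a median log2 change of -2.52. Their mean log2 levels were 7.0, 7.19 and 6.17 on the rosiglitazone arrays and 9.43, 8.92 and 9.37 on the untreated arrays. Adipose progenitor markers were present in both groups, with 0 of 10 past the threshold in limma, 1 of 10 at an unadjusted p under 0.05, and a median log2 change of 0.15; Cd24a was detected on 0 arrays. In such mixed material, fewer cells of a type and less RNA per cell cannot be told apart.

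None of the 26 kept members passed the threshold in either direction, where 2.38% of all kept probes did. For a list of this size, a count of 0 is close to that share. By limma with Benjamini-Hochberg adjustment over all kept probes, the smallest adjusted p of the brightest probes was 0.283, and 1 member, Cenpa, had an unadjusted p under 0.05, where 12.1% of all kept probes did. The groups did not overlap for 1 of 26 members, again Cenpa, where 17.2% of all kept probes showed no overlap. Log2 changes ran from -0.86 for Ccnd1 to 0.37 for Cdc20, 12 positive and 14 negative, with a median of -0.05 against 0.04 over all kept probes. The median size of a change was 0.147 on the log2 scale, against 0.179 over all kept probes.

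The intervals bound the change on the normalized scale only. The lowest detected values lay at 4.65 to 4.79 log2 units, depending on the array, so a dim member had little room to fall. Mcm3, for example, had an untreated mean of 4.59. For such members a narrow interval does not bound the change of the RNA. For 24 of the 26 members the 95% interval lay within 1 log2 unit of 0 on both sides; for Ccnd1 and Cenpa it reached further down. The lowest bound was -1.77, for Ccnd1, and the highest was 0.94, for Plk1. The spread within groups was wide. The median pooled SD was 0.372 log2 units for the members and 0.240 for all kept probes, and the range among the 3 rosiglitazone arrays was larger than the difference of means for 26 of 26 members, against 78.5% of all kept probes.

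**Figure D2:**
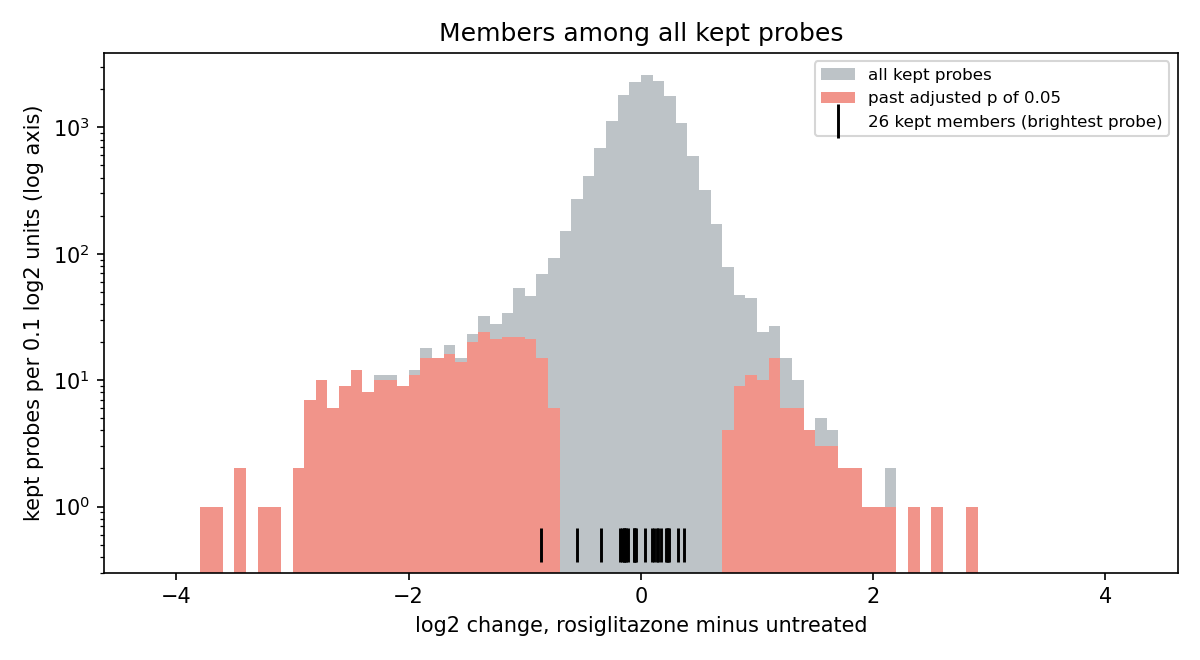
Histogram of the log2 change, rosiglitazone minus untreated, of all 16442 kept probes on a log count axis, with the 392 past the threshold in colour and the 26 kept members as ticks. The members lie between -0.86 and 0.37, with Ccnd1 and Cenpa, at -0.86 and -0.55, to the left of the others.

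Replication licensing genes had estimates from -0.05 to 0.23 by their brightest probes, with intervals that leave room for larger changes. All 6 MCM members, which form the ring-shaped helicase that unwinds DNA at the fork, had a kept probe, with a median log2 change of 0.10 and 0 past the threshold. Mcm5 had 8.47, 8.49 and 7.64 log2 units on the rosiglitazone arrays and 7.88, 8.30 and 7.72 on the untreated arrays. The rosiglitazone values included both the highest and the lowest of the 6, and the change was 0.23 (SE 0.26, adjusted p = 0.798 in limma). Mcm4 varied less, with 9.56, 9.31 and 9.14 on the rosiglitazone arrays and 9.15, 9.32 and 9.26 on the untreated arrays, a change of 0.09 with a 95% interval of -0.30 to 0.48.

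Mcm2 was uneven in both groups. It had 6.43, 5.55 and 5.52 log2 units with rosiglitazone and 5.75, 6.46 and 5.42 untreated, with 1 high array in each group and a change of -0.04 (interval -0.73 to 0.65). Mcm6 had changes of 0.11, 0.06 and 0.18 by its 3 kept probes. Mcm3 and Mcm7, detected on 3 and 4 arrays, had changes of 0.15 and -0.05.

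The 5 clamp and nucleotide supply genes had positive estimates by their brightest probes, and none passed. Tyms, encoding thymidylate synthase, had 7.89, 7.30 and 7.28 log2 units on the rosiglitazone arrays and 7.15, 7.46 and 6.90 on the untreated arrays. Its highest value was a rosiglitazone array and its lowest an untreated one, but the groups overlapped, and the change was 0.32 (SE 0.22, adjusted p = 0.656 in limma); its other kept probe had -0.06. Rrm1, the large subunit of ribonucleotide reductase, had 6.53, 6.58 and 6.30 with rosiglitazone against 6.20, 6.17 and 6.33 untreated. The lowest rosiglitazone array lay just under the highest untreated array, and the change was 0.24 (SE 0.17, adjusted p = 0.655), with 0.09 by its other kept probe.

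The other 3 members of this role had smaller estimates. Rrm2, the small subunit of the same enzyme, had a change of 0.17 by its brightest probe and -0.02 by a second. Tk1, thymidine kinase of the salvage pathway, had 6.13, 5.37 and 5.38 log2 units with rosiglitazone and 6.11, 5.13 and 5.01 untreated, so that replicate 1 was the high array of both groups, and the change was 0.21 (interval -0.48 to 0.90), with 0.04 by its other kept probe. Pcna, the sliding clamp of the replication fork, had a change of 0.04, with an interval of -0.47 to 0.54. The 5 genes together had a median change of 0.21, with 0 past the threshold.

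Ccnd1, which encodes cyclin D1, the partner of Cdk4 and Cdk6 at the entry into the cycle, had the largest estimate of the members and was measured by 3 kept probes. By its brightest probe it had 7.03, 6.76 and 8.52 log2 units on the rosiglitazone arrays and 8.24, 7.89 and 8.76 on the untreated arrays. Rosiglitazone replicates 1 and 2 lay below every untreated array, and replicate 3 lay among them. The change was -0.86 (SE 0.41, 95% interval -1.77 to 0.05, adjusted p = 0.449 in limma).

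Both other Ccnd1 probes also had rosiglitazone replicate 3 as the high array of its group. The second had 6.80, 6.58 and 8.44 log2 units with rosiglitazone and 8.28, 7.76 and 8.37 untreated, a change of -0.86 (adjusted p = 0.457). The third, dimmer, had 4.70, 4.91 and 6.13 with rosiglitazone and 6.31, 6.31 and 6.22 untreated; here the groups did not overlap, and the change was -1.03 (unadjusted p = 0.00896, adjusted p = 0.186). Probes of a gene read the same RNA and are not replicates of the condition.

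Without rosiglitazone replicate 3, the Ccnd1 change was -1.40 with an adjusted p of 0.0143 in limma, and over the 18 other settings the adjusted p ran from that value to 0.964, with no other call. Endothelial markers had the same array high: the mean log2 level of 13 markers was 7.43, 7.51 and 8.47 on the rosiglitazone arrays and 8.09, 7.85 and 8.27 on the untreated arrays. None of these 13 was past the threshold in limma and 1 had an unadjusted p under 0.05; their median log2 change was -0.23, and -0.67 without rosiglitazone replicate 3, where 1 passed. Mural markers, of pericytes and smooth muscle, had that array high in their group too: the mean of the 7 kept of 9 listed was 6.29, 6.50 and 6.85 log2 units with rosiglitazone and 7.11, 7.04 and 7.44 untreated. All 7 had negative changes, with a median of -0.65, and 2 were past the threshold. The part of endothelial or mural RNA in the Ccnd1 values was not tested.

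Cdk1, the kinase that drives mitosis, had 5.63, 5.50 and 4.98 log2 units with rosiglitazone and 5.58, 5.92 and 4.79 untreated. The lowest array of the 6 and the highest were both untreated, and the change was -0.06 (interval -0.71 to 0.58). It was the only mitotic member of its role with a kept probe.

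The mitotic kinases and checkpoint genes had a median change of -0.12 over 4 kept members. Plk1, polo-like kinase 1, had 6.36, 5.43 and 5.30 log2 units with rosiglitazone and 6.05, 5.35 and 5.02 untreated, a change of 0.22 (SE 0.32). Aurka, the Aurora kinase of the spindle poles, had a change of -0.11, Aurkb, the Aurora kinase of the centromere, -0.18, and Bub1b, the checkpoint protein BubR1, -0.14. None of the 4 had an interval that left out 0.

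Of the genes of mitotic protein degradation, Cdc20, which activates the anaphase-promoting complex, had the highest estimate of all members. It had 6.45, 6.43 and 5.97 log2 units with rosiglitazone and 6.27, 5.88 and 5.59 untreated. Rosiglitazone replicates 1 and 2 were above every untreated array and replicate 3 was among them, and the change was 0.37 (SE 0.22, adjusted p = 0.581 in limma). Its other kept probes had changes of 0.23 and 0.02. Cdca3, also called TOME-1, which helps to degrade the mitosis inhibitor Wee1, had a change of -0.14 by its brightest probe and 0.45 by its second, so the probes differed in sign and neither passed.

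Cenpa, the histone H3 variant that marks the centromere, had the smallest p of the members by their brightest probes. It had 8.54, 8.09 and 7.94 log2 units on the rosiglitazone arrays and 8.83, 8.83 and 8.56 on the untreated arrays. Every rosiglitazone array was below every untreated array, with the closest pair 8.54 and 8.56. The change was -0.55 (SE 0.20, 95% interval -1.0 to -0.11), which is 1.47-fold lower, with an unadjusted p of 0.0204 and an adjusted p of 0.283 in limma. Its sign was negative under each of the 18 other settings tried, and none of them gave a call. The other Cenpa probe was detected on 0 arrays, so the values rest on a single probe.

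The other 6 kept chromosome, spindle and cytokinesis members had changes from -0.34 to 0.14 by their brightest probes. Prc1, which bundles microtubules in the central spindle, had 8.13, 7.46 and 6.78 log2 units with rosiglitazone and 7.73, 8.24 and 6.59 untreated. The group means, 7.46 ± 0.67 with rosiglitazone and 7.52 ± 0.84 untreated (SD, n = 3 each), gave a change of -0.06, while the lowest and highest arrays were 2.54-fold apart within the rosiglitazone group and 3.14-fold apart within the untreated group. Birc5, encoding survivin, and Cdca8, encoding borealin, are partners in the chromosomal passenger complex, with changes of -0.15 and -0.13; the 2 other kept Birc5 probes had -0.27 and -0.37.

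Nusap1, a microtubule-binding protein of the spindle, had 6.50, 5.71 and 5.82 log2 units with rosiglitazone and 6.42, 6.83 and 5.82 untreated, a change of -0.34 (adjusted p = 0.720 in limma). Top2a, the topoisomerase that untangles sister chromatids, had a change of 0.14. Kif23, a kinesin of the central spindle, was represented by a bright probe that the annotation ties to a cDNA clone record, with a change of -0.16. Its 2 kept probes for the curated transcript had changes of -0.85 (adjusted p = 0.415) and -0.09. The first of them was detected on 1 rosiglitazone array and 3 untreated arrays. The 7 kept members of this role had a median change of -0.15, with 1 positive.

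**Figure D3:**
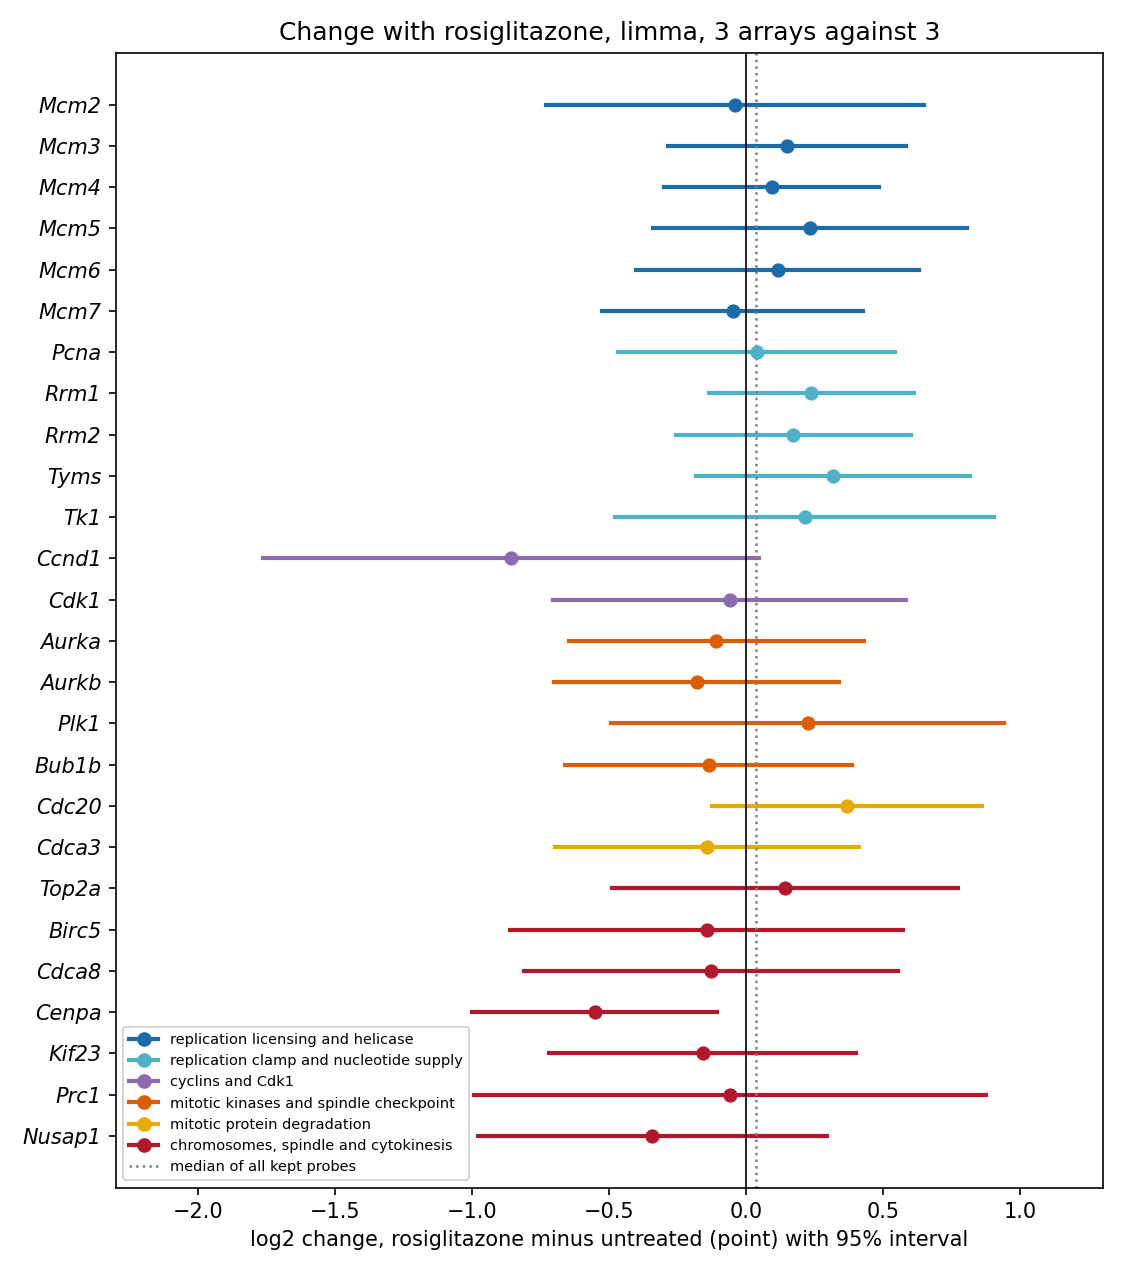
Log2 change, rosiglitazone minus untreated, of each kept member (point) with its 95% interval from limma, grouped by role. The interval of Cenpa alone leaves out 0, and that of Ccnd1 is among the widest, from -1.77 to 0.05.

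The mitotic and spindle members varied together between the arrays of a group, and this pattern was chosen after the data were seen. Of the 13 kept members of the 3 mitotic roles, 11 were highest of the rosiglitazone arrays on replicate 1, where 34.9% of all kept probes were, and 12 were lowest of the untreated arrays on replicate 3, where 32.9% of all kept probes were. Both held for 11 of the 13 (84.6%), against 15.3% of all kept probes. Untreated replicate 2 was the highest of its group for 10 and rosiglitazone replicate 3 the lowest of its group for 9. Birc5 shows it, with 6.70, 5.98 and 5.56 log2 units on the rosiglitazone arrays and 6.33, 6.70 and 5.66 on the untreated arrays.

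Among the 11 replication members, 6 were highest on rosiglitazone replicate 1, 5 were lowest on untreated replicate 3, and both held for 4 (36.4%). The difference between the 2 sets was not tested. Among 26 other mitosis genes with a kept probe, 12 were highest on rosiglitazone replicate 1 and 16 lowest on untreated replicate 3. Among 35 other replication genes, 21 were highest on rosiglitazone replicate 1 (60%) and 11 were lowest on untreated replicate 3 (31.4%). Of all kept probes, 34.9% and 32.9% were. On rosiglitazone replicate 3, 21 of the 35 were lowest of their group (60%), against 35.7% of all kept probes. When arrays were scaled by their medians instead of by quantiles, 7 of the 13 mitotic and spindle members were highest on rosiglitazone replicate 1 and 7 were lowest on untreated replicate 3, where 8.47% and 6.54% of all kept probes were.

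Some other measures followed all or part of this array order, and others did not. Total intensity was 10330923, 13615604 and 11663031 units on the rosiglitazone arrays and 14510640, 9478692 and 14831319 on the untreated arrays, so rosiglitazone replicate 1 and untreated replicate 2 were the dimmest of their groups. The mean log2 level of the 3 kept erythroid markers of 8 listed was 8.81, 8.29 and 8.56 with rosiglitazone and 9.71, 11.41 and 7.94 untreated, in the same order within the untreated group as Birc5, with Klf1 detected on 0 arrays. The mean of the 3 kept lymphocyte markers of 12 listed was 5.35, 5.08 and 4.84 with rosiglitazone and 5.08, 5.22 and 4.91 untreated. That is the order of Birc5 within both groups. Cd3e, Cd3g, Cd4, Cd8a and Ms4a1 were detected on 0 arrays. The mean of the 4 kept mesothelial markers of 7 listed was 6.52, 6.18 and 5.25 with rosiglitazone and 5.78, 5.32 and 5.32 untreated, with Msln detected on 0 arrays. Macrophage markers, given above, were in another order, with rosiglitazone replicate 2 and untreated replicate 1 the highest of their groups. Endothelial and mural markers, also given above, were lowest of their group on rosiglitazone replicate 1 and highest of their group on untreated replicate 3. The same held for the 4 kept mature adipocyte markers of 8 listed. Their means were 6.24, 7.04 and 6.87 with rosiglitazone and 6.39, 6.15 and 6.80 untreated. The part of array brightness or of other cells in the pattern was not tested.

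**Figure D4:**
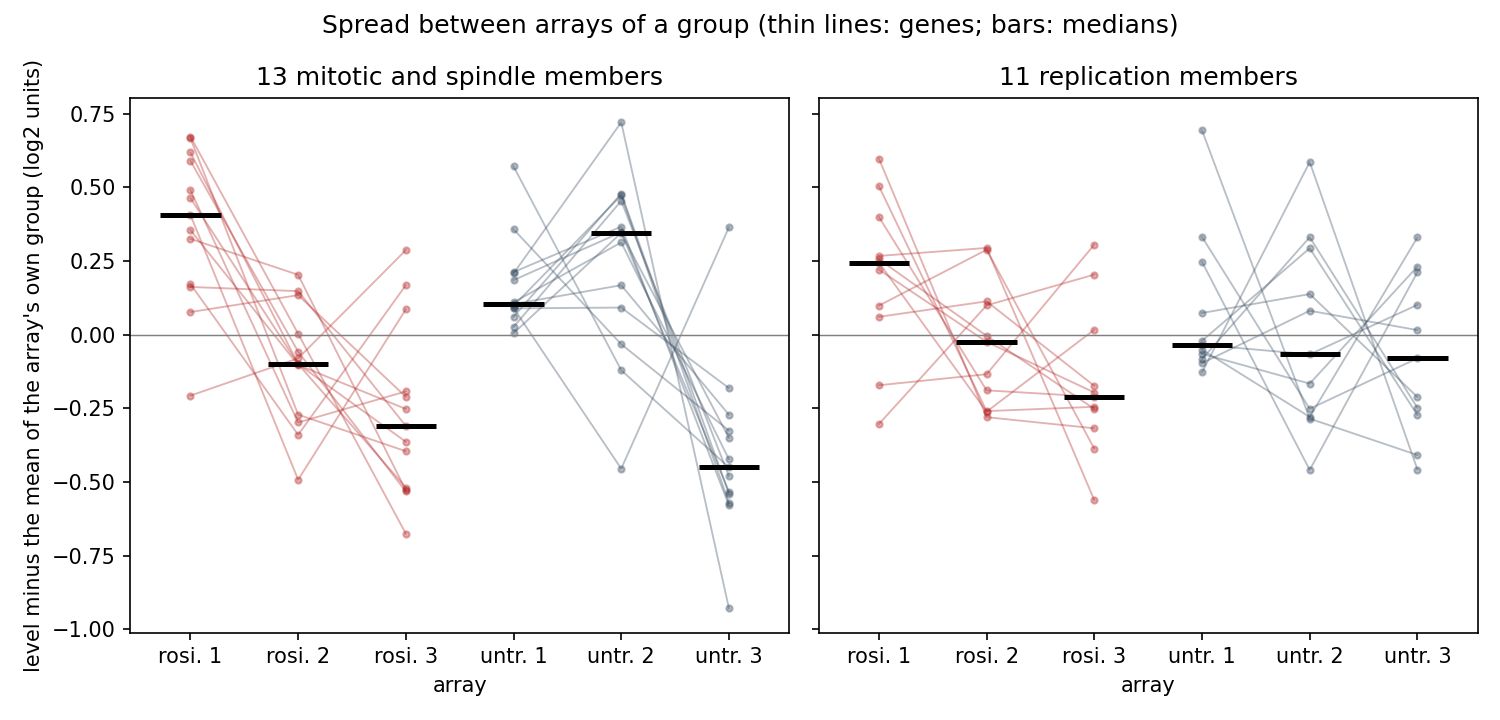
Level of each kept member on each array minus the mean of that array's group, in log2 units, for mitotic and spindle members and for replication members; thin lines join the values of a gene and bars are medians, and replicate numbers have no order. The mitotic and spindle members have medians of 0.41 on rosiglitazone replicate 1 and -0.45 on untreated replicate 3.

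The regulators and the wider pathway were read from lists of other genes. The counts of these lists stand beside the shares over all kept probes. Of those, 2.38% passed the threshold in limma, 12.1% had an unadjusted p under 0.05, and 17.2% showed no overlap between the groups. In the lists, the groups did not overlap for 2 of 35 other replication genes and 1 of 26 other mitosis genes. The same held for 3 of 17 E2F, DREAM and MuvB regulators and 3 of 8 other cyclins and CDKs. It also held for 3 of 10 CDK inhibitors and antiproliferative genes. Of 35 kept other replication genes, 0 passed the threshold in limma, 3 had an unadjusted p under 0.05, and the median log2 change was 0.10, with 25 positive and 10 negative. Cdt1, which loads the MCM helicase, had 7.01, 6.89 and 6.33 log2 units with rosiglitazone and 7.38, 7.20 and 7.27 untreated, with no overlap between the groups and a change of -0.54 (adjusted p = 0.310). Cdc7, the kinase that fires origins, had a change of 0.56 (adjusted p = 0.231), and Pold2, a subunit of DNA polymerase delta, had 0.63 (adjusted p = 0.314). Of 26 kept other mitosis genes, 0 passed in limma, 1 had an unadjusted p under 0.05, and the median was -0.03. That gene was Incenp, the scaffold of the passenger complex, with a change of -0.52 (adjusted p = 0.389). Cenpw and H2az1, a kinetochore gene and a histone variant gene, had 0.35 and -0.34.

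Of 17 kept E2F, DREAM and MuvB regulators, 0 passed in limma and 1 had an unadjusted p under 0.05, with a median of -0.09. That gene was Rb1, the retinoblastoma protein, which holds E2F in check. It had 7.48, 7.67 and 7.74 log2 units on the rosiglitazone arrays and 8.30, 7.97 and 8.22 on the untreated arrays. Every rosiglitazone array was below every untreated array, and the change was -0.53 (adjusted p = 0.223); a second probe had -0.57 (adjusted p = 0.372). The activators had changes of -0.23 for E2f1, -0.10 for Foxm1 and -0.08 for Mybl2, the gene of B-Myb. A second kept Foxm1 probe, detected on 4 arrays, had 0.08. The repressive family had 0.36 for E2f4 and -0.29 for Rbl1, while Rbl2 was detected on 0 arrays. Myc, which promotes growth and cycle entry, had -0.46 (adjusted p = 0.529).

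Of 8 kept other cyclins and CDKs, 0 passed in limma, 2 had an unadjusted p under 0.05, and the median was 0.16. Ccnd2, encoding cyclin D2, had 10.28, 10.14 and 10.20 log2 units with rosiglitazone and 9.45, 9.78 and 9.87 untreated. Every rosiglitazone array was above every untreated array by this probe, with a change of 0.51 (adjusted p = 0.255), and the other kept probes had 0.15 and 0.29. Mnat1, a subunit of the CDK-activating kinase, had 0.60 and 0.51 by its 2 probes (adjusted p = 0.172 and 0.233). Ccnd3, Cdk4 and Cdk2 had changes of 0.27, 0.25 and -0.10, and Cdk6 was detected on 0 arrays.

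Of 10 kept CDK inhibitors and antiproliferative genes, 0 passed in limma, 3 had an unadjusted p under 0.05, and the median was -0.16. Cdkn1c, encoding the inhibitor p57, had 12.69, 12.57 and 12.47 log2 units on the rosiglitazone arrays and 11.28, 12.43 and 11.22 on the untreated arrays. Untreated replicate 2 lay just below the rosiglitazone arrays and the other untreated arrays far below, with a change of 0.93 (SE 0.30, adjusted p = 0.199). Without untreated replicate 2 the change was 1.33 with an adjusted p of 0.00693 in limma, and over the 18 other settings the adjusted p ran from that value to 0.519, with no other call. Cdkn2b, encoding p15, had -0.44 (adjusted p = 0.310), Mdm2, the regulator of p53, -0.58 (adjusted p = 0.402), Cdkn1a, encoding p21, -0.47 (adjusted p = 0.658), and Cdkn1b, encoding p27, -0.18.

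**Figure D5:**
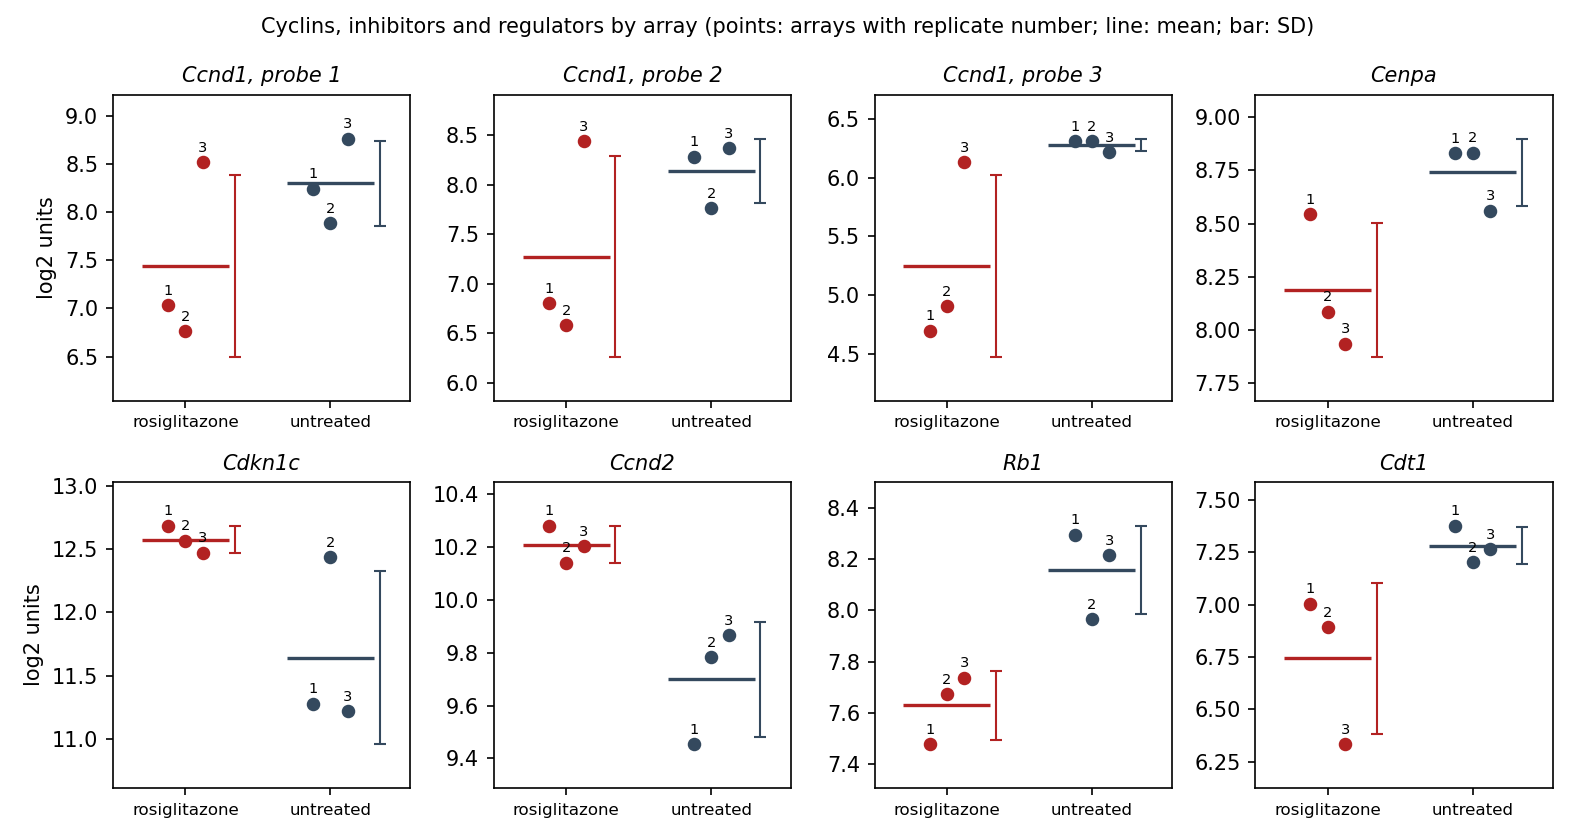
Log2 level on each array (points, with the replicate number), mean (line) and SD (bar) of the 3 kept Ccnd1 probes, Cenpa, Cdkn1c, Ccnd2, Rb1 and Cdt1, rosiglitazone left of untreated. Rosiglitazone replicate 3 is the high Ccnd1 point of its group by all 3 probes, and untreated replicate 2 is the high Cdkn1c point of its group.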

How the data were processed

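RNA from 6 cohorts was labelled as biotinylated cRNA for Illumina arrays of 45281 probes, per the labels' protocols. The authors deposited the non-normalized intensity of each probe on a linear scale, with a detection p-value beside it, and a normalized intensity table whose method is not given in the sources used here. The values used were log2 of the deposited intensity after normexp background correction from the detection p-values (offset 16) and quantile normalization. That offset understates changes of dim probes. A probe entered the fit if 3 or more arrays had a detection p-value below 0.05, which left 16442. Groups were compared with lmFit and eBayes in limma 3.58.1 (R 4.3.3), two-sided, with no covariates, adjusting by Benjamini-Hochberg over all kept probes at a threshold of 0.05; the code was tested on simulated data.

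The brightest kept probe stands for a gene, and symbols came from the platform annotation, which left 10378 probes unnamed and gave 18 several symbols. The members and all lists were chosen with earlier results of these data known. All kept members are named; of the other lists, the 3 genes with the smallest p and a list of regulators and cyclins. Alternatives covered background, normalization, source table, filter, variance model, array weights, replicate block, averaging of probes and each array left out. No chip was used as a block, because nothing in the columns or labels used here identifies one. The p-values set the difference of the groups against the spread between arrays, each array standing for a cohort.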

Additional observations from a re-analysis of the deposited data

How the results depend on the processing

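Under 18 other settings, 6 of which left out 1 array, the count of members past the threshold stayed at 0 higher, and at 0 lower except without rosiglitazone replicate 3, where Ccnd1 passed (0 to 1 over the left-out arrays). Of 459 pairs of a kept member and a setting, 1 passed, and of 411 pairs of another named gene and a setting, 1 passed (Cdkn1c). The median change of the kept members ran from -0.07 to 0.14 when 1 array was left out. Over the whole table, higher probes numbered 81, but 30 with median scaling, 26 with no detection filter, 168 with array weights and 31 to 116 with 1 array left out; lower probes numbered 311, but 131 with no detection filter and 185 to 319 with 1 array left out. Without untreated replicate 1, 31 were higher and 185 lower; leaving out untreated replicate 2 gave 42 higher, and leaving out rosiglitazone replicate 2 gave 39. The cause was not tested. Replicate numbers did not clearly pair the cohorts. Correlations of same-numbered deviations were 0.05, -0.01 and 0.35, and those of different numbers ran from -0.30 to 0.27. Whether the cohorts were paired by number cannot be told from these values. With the replicate number as a block, 0 members passed, their median stayed at -0.05, and 113 probes were higher and 362 lower. The adjusted p of Ccnd1 was then 0.085 in limma, against 0.449 without the block.

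Of the 26 kept members, 10 kept their sign in every setting and 16 did not. No value with a turned sign passed the threshold. Pcna was -0.0086 with median scaling and -0.025 with cyclic loess. With array weights Mcm6 was -0.0015, Cdk1 0.0019 and Mybl2 0.034, and Cdca3 was 0.15 as the mean over kept probes. With 1 array left out, replication genes ran from -0.34 to 0.25 for Mcm2, -0.018 to 0.19 for Mcm4, -0.11 to 0.24 for Mcm6, -0.19 to 0.12 for Mcm7, -0.11 to 0.23 for Pcna and -0.039 to 0.56 for Tk1. Kinases ran from -0.38 to 0.18 for Cdk1, -0.18 to 0.047 for Cdk2, -0.31 to 0.14 for Aurka, -0.11 to 0.51 for Plk1 and -0.36 to 0.046 for Bub1b. Other mitotic genes ran from -0.45 to 0.11 for Birc5, -0.43 to 0.041 for Cdca3, -0.42 to 0.14 for Cdca8, -0.39 to 0.023 for Kif23, -0.52 to 0.30 for Prc1 and -0.13 to 0.41 for Top2a, and regulators from -0.29 to 0.12 for Foxm1 and -0.28 to 0.17 for Mybl2. Signal over background limits the rest: 34 of the 75 member probes were not kept, and 5 of the 26 kept members were detected on fewer than 6 arrays.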
